A study of Homo sapiens with 8 samples.

Results

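Chromosome 7q11.21 carries a cluster of zinc finger genes, among them genes for KRAB zinc finger proteins. Of this cluster, 7 genes were followed here in human embryonic kidney cells in which the RNA helicase MOV10 was raised or lowered. Whether each of them encodes a KRAB domain was not checked. In their order along the chromosome, the 7 genes are ZNF736, ZNF680, ZNF107, ZNF138, ZNF273, ZNF117 and ZNF92. They are 7 of 23368 gene symbols in the count table, and all 7 passed the filter on low counts that left 15254 genes for testing. The cluster was selected on a measured value: ZNF117 was lower than control in both MOV10 comparisons. Its values there are therefore a description, and so are the calls of its neighbours in the same 2 comparisons.

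Total RNA of HEK293F cells, a line derived from human embryonic kidney and grown in serum-containing DMEM, was sequenced in 8 libraries made with a kit that keeps the strand. In 2 libraries MOV10 had been lowered by repeated siRNA treatment (knockdown), in 3 it had been raised by a single transfection of myc-tagged MOV10 (overexpression), and 3 libraries came from cells given an irrelevant siRNA (control). Overexpression cells received no siRNA according to the labels, and no library from cells with an empty plasmid was analysed here, so the effects of delivery and of MOV10 cannot be told apart. Both comparisons with control use the same 3 control libraries, so a departure of those 3 libraries would enter both. The labels do not state whether the libraries within a group are from separate cultures, and the p-values then measure only the spread between libraries, which may be technical.

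KRAB zinc finger proteins are transcription factors whose tandem C2H2 fingers bind DNA and whose KRAB domain recruits the corepressor TRIM28. TRIM28 in turn brings in the histone methyltransferase SETDB1 and heterochromatin proteins, and many members of the family silence transposable elements. Their genes arose by repeated duplication and lie in clusters, the largest on chromosome 19, and sequences remain alike between neighbours. ZNF117 has an unusual neighbour: on the same strand just upstream of it lies ERV3-1, the envelope gene of an old endogenous retrovirus, and transcripts that start ahead of ERV3-1 are known to run on into ZNF117.

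The promoters show how these genes are related. RefSeq (GRCh38.p14, while the counts were made on hg19) gives 10 start sites for the 7 genes and ERV3-1, since ZNF273 and ERV3-1 have an outer and an inner start. Over the 300 bases around the start, most of them upstream, 7 of the 10 starts hold the same 5 words of 8 or 9 letters: CAGGGAGGA, CCAATCAG, TCCAATCA, CTTTGTCTC and CTTCCGGG. The second and the third overlap and contain the CCAAT box, a common promoter element, which each of these 7 starts carries at 2 places. The words were chosen because these starts share them. Single words, on either strand, occur in 1.43%, 3.97%, 1.54%, 0.638% and 3.90% of 35116 human promoters of the same length, and all 5 on the gene's strand in 14 of them. Those 14 are the 7 starts here and 7 on chromosome 19 (ZNF43, ZNF208, ZNF254, ZNF257, ZNF486, ZNF724 and ZNF737). ERV3-1 is the single one of the 14 that is not a zinc finger gene.

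The stretch that holds all but the first of these words is printed for the 7 starts to show this likeness, with the shared words in capitals. The places are chr7:64313893-64314010 (plus strand) for ZNF736, chr7:64563062-64563169 (minus) for ZNF680, chr7:64666041-64666148 (plus) for ZNF107, chr7:64794330-64794437 (plus) for ZNF138, chr7:64903175-64903282 (plus) for the inner start of ZNF273, chr7:65006678-65006784 (minus) for the outer start of ERV3-1 and chr7:65373757-65373864 (plus) for ZNF92.
ZNF736: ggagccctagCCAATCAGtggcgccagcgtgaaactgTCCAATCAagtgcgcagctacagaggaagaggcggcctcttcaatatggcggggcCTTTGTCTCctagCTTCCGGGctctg
ZNF680: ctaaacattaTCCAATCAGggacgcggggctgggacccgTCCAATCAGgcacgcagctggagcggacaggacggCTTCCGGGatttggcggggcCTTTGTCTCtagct
ZNF107: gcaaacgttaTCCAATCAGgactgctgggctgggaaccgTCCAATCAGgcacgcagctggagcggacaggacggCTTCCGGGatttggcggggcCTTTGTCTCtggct
ZNF138: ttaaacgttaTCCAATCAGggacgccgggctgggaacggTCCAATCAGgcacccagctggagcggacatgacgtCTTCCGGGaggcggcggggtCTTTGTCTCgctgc
ZNF273, inner start: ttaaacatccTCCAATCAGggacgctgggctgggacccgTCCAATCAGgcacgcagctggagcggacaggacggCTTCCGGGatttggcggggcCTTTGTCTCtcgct
ZNF92: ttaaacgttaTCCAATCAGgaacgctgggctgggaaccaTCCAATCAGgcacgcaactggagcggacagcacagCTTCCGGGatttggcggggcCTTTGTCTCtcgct
ERV3-1, outer start: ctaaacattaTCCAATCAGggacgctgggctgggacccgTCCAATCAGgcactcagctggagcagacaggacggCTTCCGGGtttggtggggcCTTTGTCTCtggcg

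These 300-base promoters were 61.3% to 85.3% identical between members (median 82.0% over 15 pairs), and the pairs with ZNF736 were all at or below 65.3%. The outer start of ERV3-1 was 66.3% to 83.0% identical to the 6 members, with the same median. The annotated start of ZNF117 itself held none of the 5 words and was 49.7% to 55.3% identical to the 7 starts. The outer start of ZNF273 and the inner start of ERV3-1, also without the words, gave 51.7% to 55.3% and 50.7% to 55.3%. The range of ZNF117 thus marks no special likeness. The annotated ZNF117 start lies within ERV3-1, whose annotated exons overlap those of ZNF117 over 372 bases in GENCODE 29. One annotated ZNF117 transcript, with a retained intron, begins 3 bases from the outer start of ERV3-1 and so at a promoter of the cluster type. Which start was used in these cells was not measured.

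**Figure D1:**
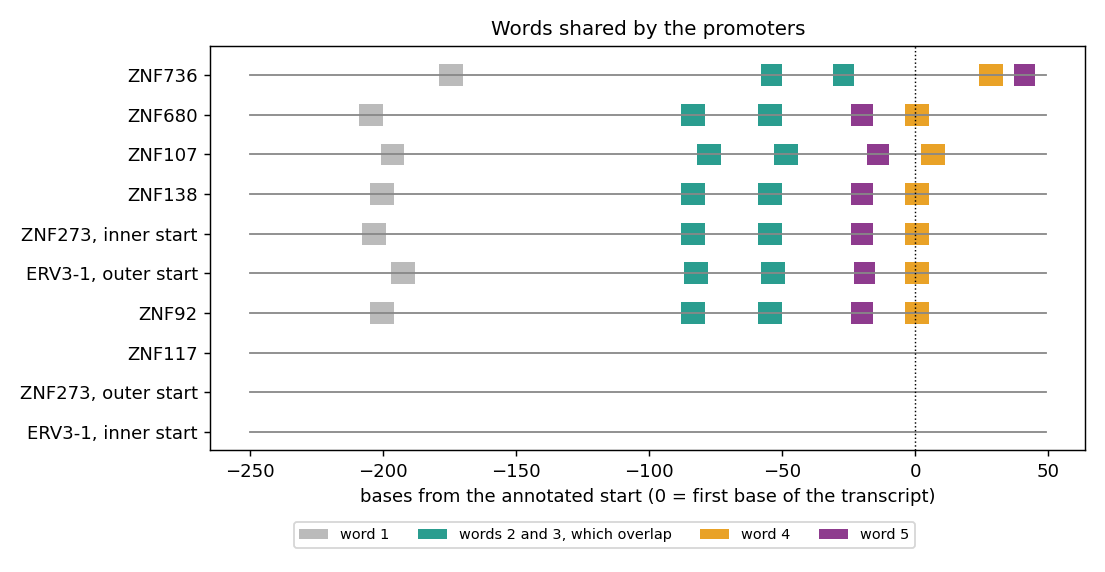
Position of the shared words in the promoters of the 7 genes and ERV3-1, in bases from the annotated start, with 1 line per start. The words sit at like distances in 6 starts and farther downstream, with the last 2 in the other order, in ZNF736. The start of ZNF117, the outer start of ZNF273 and the inner start of ERV3-1 hold none.

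The libraries held between 12.7 M and 32.8 M counted reads, and libraries of a group differed by more than sampling noise. MOV10 stood at 76.4 to 91.2 CPM (read counts scaled by library size and TMM factor) in control. It stood at 50.6 and 55.5 CPM with knockdown and at 2454 to 2971 CPM with overexpression, as labelled. These levels were 0.651 and 34.2 times that of control in this order, so the 2 changes in MOV10 RNA were of very unequal size. All 9 markers set for HEK293 cells, among them VIM, PAX2 and LIN28B, were above 1 CPM in every library, and the 7 markers of other cell types were below 1 CPM in all. In bulk RNA, fewer cells of a type and less RNA per cell cannot be told apart.

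Levels were compared between genes per length, as control CPM per kb of annotated exon. ZNF92 was the most abundant member at 17.3 ± 1.62 (SD, n = 3), followed by ZNF138 at 14.7 ± 0.281, ZNF107 at 7.80 ± 0.343, ZNF680 at 6.43 ± 0.298, ZNF273 at 3.09 ± 0.118, ZNF117 at 2.03 ± 0.137 and ZNF736 at 1.57 ± 0.162. No 2 neighbours in this order overlapped over the control libraries. The lengths come from GENCODE 29, another annotation than that of the counts. With the longest transcript as the length, ZNF680 (11.9 ± 0.550) stood above ZNF107 (9.17 ± 0.403), and ZNF117 (2.20 to 2.49) and ZNF736 (1.84 to 2.26) overlapped. The other zinc finger genes of the region were nearly silent: ZNF479, ZNF679, ZNF716, ZNF727 and ZNF735 had between 0 and 4 reads over all 8 libraries. ZNF713, which lies before all of these along chromosome 7, reached 84 to 213 reads per library.

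ZNF117 was the lower one of the 7 genes in both comparisons. It stood at 19.99, 22.4 and 22.6 CPM in the control libraries, at 10.3 and 11.01 CPM with knockdown and at 11.6, 9.89 and 13.7 CPM with overexpression. Every treated library lay below every control library, and the 2 treatments overlapped. The log2 fold change was -0.91 ± 0.10 (SE) with overexpression and -1.03 ± 0.11 with knockdown, which left 0.533 and 0.491 of the control level. These are the values the gene was chosen by.

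Within a library, the part of the members' reads that falls to ZNF117 needs no scaling between libraries. It was 7.77%, 8.41% and 9.09% in control, 3.58% and 3.91% with knockdown, and 3.74%, 3.41% and 4.02% with overexpression. The exact 95% binomial intervals, which cover counting error only, ran from 7.09% to 10.1% over the control libraries and from 2.99% to 4.64% over the treated ones. The share was lower in all 5 treated libraries than in any control library, but it is built from the ZNF117 counts the gene was chosen by and is no further support for its drop. Such a share falls when the gene goes down or when the others go up. The 7 genes together took 0.0249% to 0.0266% of a control library's reads, 0.0274% and 0.0277% with knockdown and 0.0298% to 0.0350% with overexpression.

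**Figure D2:**
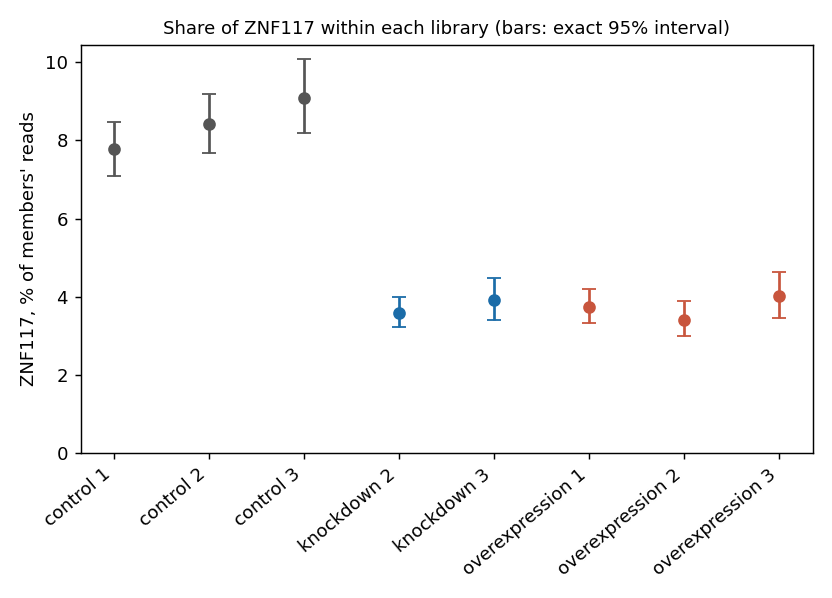
Reads of ZNF117 as a percentage of the reads of all 7 members, 1 point per library, with exact 95% binomial intervals. The control libraries lie at 7.77% to 9.09% and the treated ones at 3.41% to 4.02%.

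ERV3-1 moved with ZNF117. It was not used in choosing the cluster, but its exons overlap those of ZNF117. Transcripts that start ahead of ERV3-1 are also known to run on into ZNF117. The counts of both genes may therefore not be independent, and the fall of ERV3-1 is no separate support for that of ZNF117. ERV3-1 stood at 7.54, 9.42 and 10.3 CPM in control, at 4.09 and 4.47 CPM with knockdown and at 5.63, 4.70 and 4.37 CPM with overexpression. All treated libraries lay below all control libraries here too. ERV3-1 fell by 0.85 on the log2 scale with overexpression (SE 0.13, adjusted p = 2.38e-05) and by 1.08 with knockdown (SE 0.15, adjusted p = 8.28e-06 in edgeR, quasi-likelihood test, Benjamini-Hochberg adjusted). ZNF117 had 2.20 to 2.65 reads for each ERV3-1 read in control, 2.46 and 2.52 with knockdown and 2.06 to 3.14 with overexpression. These ratios overlapped between control and both treatments. The shared 372 bases made up 8.13% of the exon length of ERV3-1 and 3.48% of that of ZNF117, and the sources used here do not say how reads on them were counted.

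With overexpression, the other 6 members stood above control while ZNF117 stood below it. Of the 7, 6 members were called higher (edgeR, adjusted p under 0.05) and 1, ZNF117, lower. Among all genes tested 49.2% were called in this comparison, 25.2% higher and 24.1% lower. The median log2 fold change of the 7 members was 0.32, against 0.02 for all genes. Scaling by library totals alone gave 4520 higher and 2997 lower genes in place of 3837 and 3671, and the 7 members kept their calls.

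ZNF92 showed the largest rise. It stood at 63.8, 64.0 and 54.1 CPM in control and at 88.5, 76.6 and 94.9 CPM with overexpression, and the 2 knockdown libraries reached 97.1 and 86.4 CPM. All 5 treated libraries were above all control libraries. The log2 fold change was 0.50 ± 0.08 with overexpression and 0.60 ± 0.08 with knockdown. ZNF92 is on the far side of ZNF117 and ERV3-1 from the other members.

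ZNF107, which encodes a long protein with many fingers, also stood higher in both treatments. Its control libraries held 55.8, 58.4 and 53.5 CPM, the overexpression libraries 65.2, 59.2 and 72.9 CPM and the knockdown libraries 64.4 and 67.4 CPM. The treated libraries lay above the control libraries, by a narrow margin in overexpression replicate 2. The log2 fold changes were 0.22 ± 0.07 and 0.23 ± 0.07.

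ZNF273 followed the same pattern at a lower level. It stood at 27.8, 26.8 and 25.7 CPM in control, at 34.6, 31.6 and 34.1 CPM with overexpression and at 31.0 and 30.8 CPM with knockdown. The groups did not overlap. The log2 fold changes were 0.32 ± 0.07 with overexpression and 0.20 ± 0.07 with knockdown. The knockdown calls of ZNF107 and ZNF273 were both lost without knockdown replicate 2, knockdown replicate 3 or control replicate 3, which left 1 member, ZNF92, called higher. The call of ZNF273 was also lost without control replicate 2, with library totals, with DESeq2 and in thinned counts.

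ZNF736, the first gene of the row, moved in opposite directions. It held 13.1, 15.2 and 16.1 CPM in control, 18.7, 17.1 and 20.2 CPM with overexpression, and 10.8 and 10.1 CPM with knockdown. The 3 groups did not overlap, with overexpression at the top and knockdown at the bottom. The log2 fold changes were 0.33 ± 0.09 and -0.48 ± 0.11.

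ZNF138 had a like order with smaller steps. Its control libraries held 41.1, 42.1 and 42.7 CPM, the overexpression libraries 48.3, 53.9 and 54.99 CPM and the knockdown libraries 37.0 and 38.6 CPM. The groups did not overlap. The log2 fold change was 0.32 ± 0.06 with overexpression, and that of -0.15 ± 0.07 with knockdown was not called. It was called with library totals, with only the compared groups in the fit and without overexpression replicate 3.

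ZNF680 differed with overexpression alone. It stood at 35.9, 37.6 and 34.3 CPM in control, at 43.3, 41.5 and 50.9 CPM with overexpression and at 37.2 and 37.3 CPM with knockdown. The knockdown libraries lay within the control range and the overexpression libraries above it. The log2 fold changes were 0.32 ± 0.07 and 0.05 ± 0.08, and the second was not called.

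**Figure D3:**
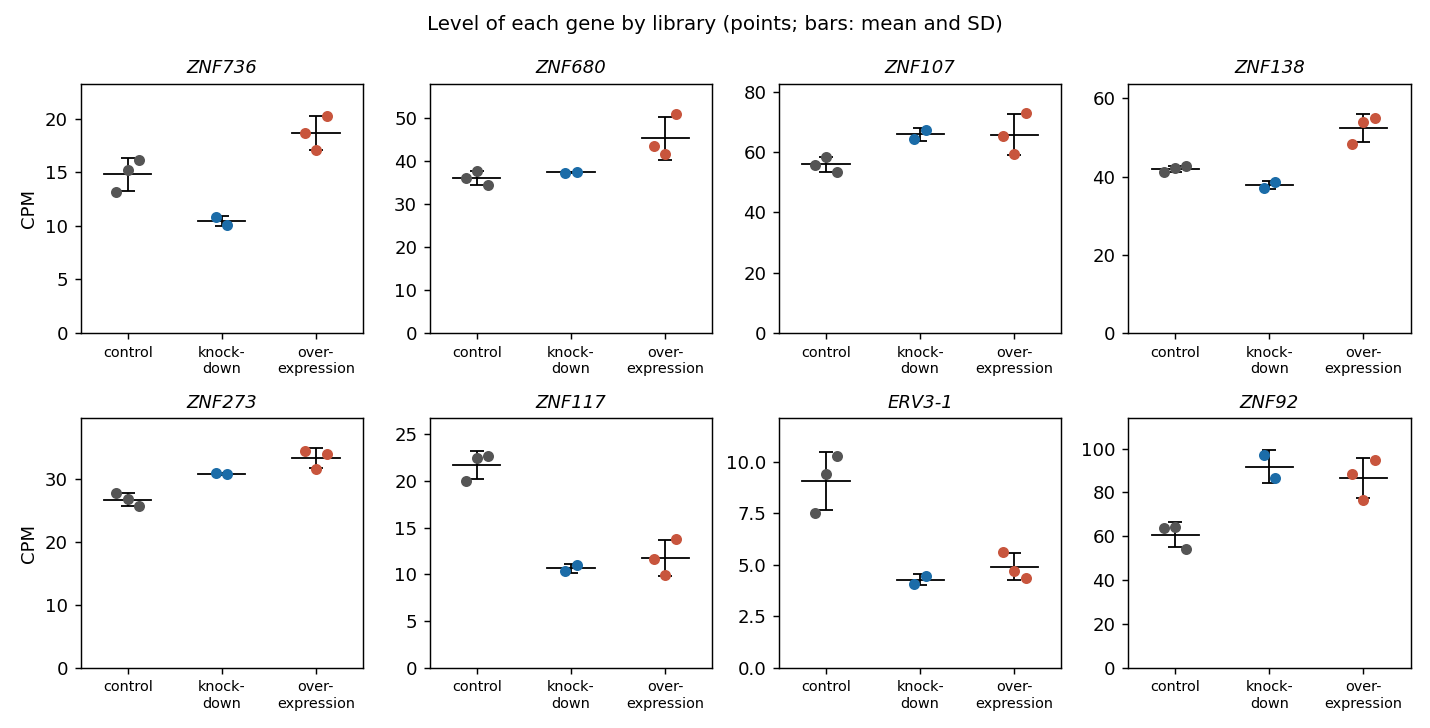
CPM of each member and ERV3-1 in every library (points), with the mean and SD of each group. ZNF117 and ERV3-1 are lower in both treated groups, ZNF92, ZNF107 and ZNF273 higher in both, and ZNF736 and ZNF138 lie highest with overexpression and lowest with knockdown.

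With knockdown, 3 members were thus called higher (ZNF92, ZNF107 and ZNF273), 2 lower (ZNF117 and ZNF736) and 2 neither way. Of all genes tested 39.0% were called in this comparison, 19.9% higher and 19.1% lower. The members' median log2 fold change was 0.05, against 0.00 for all genes. Library totals gave 2353 higher and 3611 lower genes in place of 3036 and 2907.

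The direct contrast of overexpression with knockdown does not use the control level, and the choice of ZNF117 did not rest on it. The control libraries still enter the shared filter, scaling and estimate of spread. ZNF736 was 1.76-fold higher with overexpression than with knockdown (log2 0.82 ± 0.10, adjusted p = 1.2e-06, edgeR). ZNF138 was 1.38-fold higher (0.47 ± 0.07, adjusted p = 7.57e-06) and ZNF680 1.20-fold higher (0.27 ± 0.08, adjusted p = 0.00601). In each of the 3 genes all overexpression libraries lay above both knockdown libraries. The call of ZNF680 was lost without knockdown replicate 2 (adjusted p = 0.0548, edgeR).

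For ZNF117 the same contrast gave 0.12 ± 0.12 (adjusted p = 0.389, edgeR), and its groups overlapped. ERV3-1 stood at 0.23 ± 0.16 (adjusted p = 0.22, edgeR). A difference between the treatments was therefore not called for either gene, which does not show that the levels are equal. ZNF273 (0.11 ± 0.07, adjusted p = 0.184, edgeR), ZNF92 (-0.09 ± 0.08, adjusted p = 0.333) and ZNF107 (-0.01 ± 0.07, adjusted p = 0.918) were not called. Leaving out overexpression replicate 3 brought ZNF92 to -0.16 (adjusted p = 0.0362, edgeR), and library totals brought ZNF273 to 0.20 (adjusted p = 0.021). In all, 3 members were called higher and 0 lower, where 57.4% of all genes were called, 29.3% higher and 28.1% lower. Library totals moved the median of all genes in this contrast from 0.02 to 0.10 and gave 5709 higher and 3001 lower genes in place of 4467 and 4289.

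**Figure D4:**
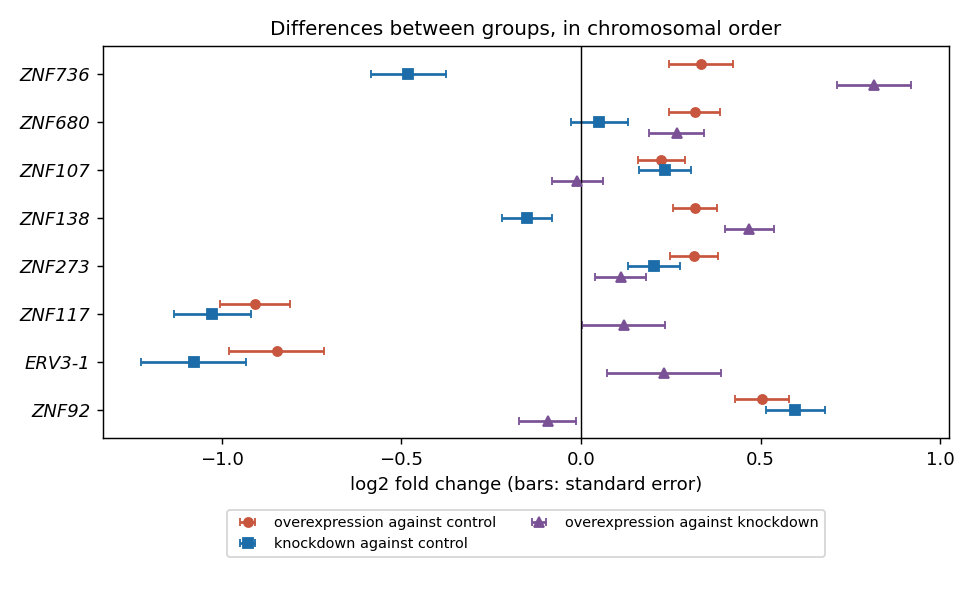
Log2 fold changes with standard errors for the members and ERV3-1, in their order on the chromosome, for the 3 contrasts. ZNF117 (-0.91 and -1.03) and ERV3-1 (-0.85 and -1.08) lie to the left in both comparisons with control, and ZNF736 has the largest difference between the treatments (0.82).

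Of 16 tested neighbouring genes without zinc fingers, ERV3-1 included, 5 were called higher and 7 lower with overexpression. With knockdown 5 were higher and 4 lower, and the medians were -0.04 and 0.00 in this order. Over all genes, 25.2% were called higher and 24.1% lower with overexpression and 19.9% and 19.1% with knockdown. Whether the small counts of the 16 genes differ from these shares was not tested. In the direct contrast 2 were higher and 3 lower, against 29.3% and 28.1% of all genes. The genes named next were picked for a small adjusted p in these same comparisons, so those values describe them and are no independent test. GUSB, which encodes the lysosomal enzyme beta-glucuronidase, rose by 0.69 ± 0.05 with overexpression (adjusted p = 4.4e-09, edgeR) and by 0.34 ± 0.06 with knockdown (adjusted p = 0.000129). KCTD7 fell by 0.17 with overexpression (SE 0.05, adjusted p = 0.0138, edgeR) and by 0.43 with knockdown (SE 0.06, adjusted p = 1.14e-05, edgeR). The call of KCTD7 with overexpression was lost with library totals and without control replicate 2 or overexpression replicate 1. The median of these genes was near that of all genes, while single genes next to each other differed in sign.

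**Figure D5:**
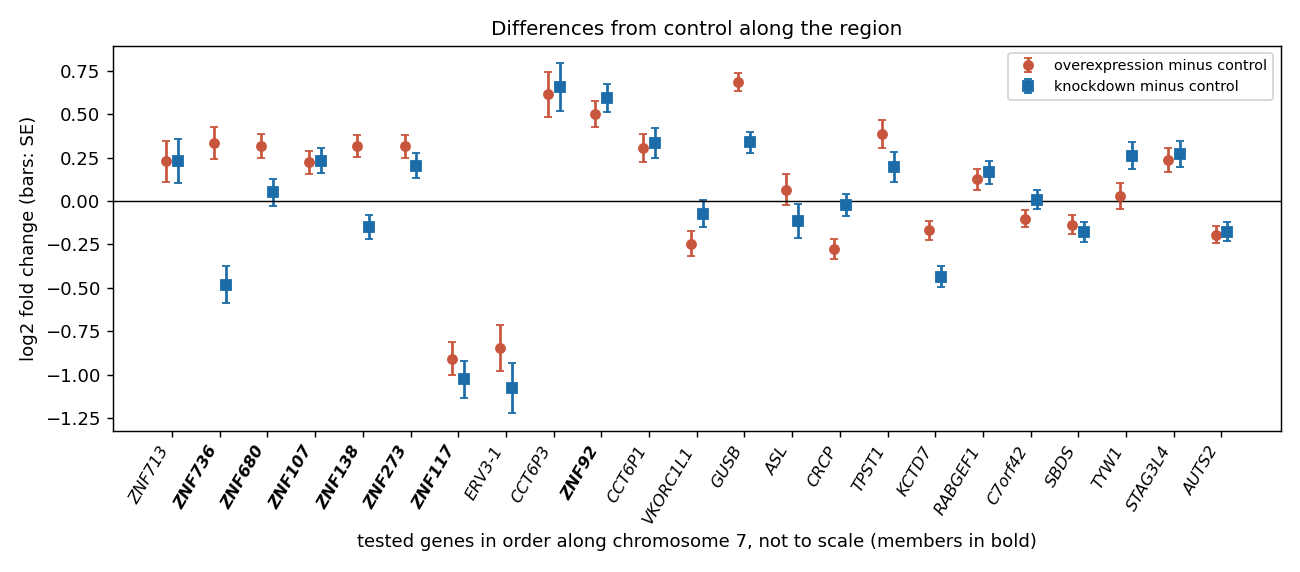
Log2 fold change from control with its standard error for tested genes of the region with a RefSeq position, ordered along chromosome 7 and not to scale. ZNF117 and ERV3-1 lie side by side and lower than the other genes plotted, while ZNF273 before them and ZNF92 after them are above 0.

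The chromosome 19p12 cluster holds related zinc finger genes, some with the same promoter words. Of its 23 tested genes, 11 were called higher and 0 lower with overexpression (median 0.25), and 6 higher and 2 lower with knockdown (median -0.03). In the direct contrast 9 were higher and 0 lower (median 0.30). The shares over all genes were 25.2% higher and 24.1% lower, 19.9% and 19.1%, and 29.3% and 28.1% in the same order. ZNF681 stood at 13.9 CPM in control, 15.2 CPM with overexpression and 9.01 CPM with knockdown. Its overexpression libraries overlapped control and the difference of 0.13 ± 0.09 was not called (adjusted p = 0.259, edgeR), while knockdown lay lower, with a direct difference of 0.77 ± 0.11 (adjusted p = 4.46e-06, edgeR). ZNF254, which holds the 5 promoter words, was higher with overexpression by 0.57 ± 0.06 (adjusted p = 1.59e-07, edgeR) and with knockdown by 0.25 ± 0.06 (adjusted p = 0.00369, edgeR; not called without knockdown replicate 2). ZNF43, which also holds these words, was higher with overexpression by 0.42 ± 0.09 (adjusted p = 0.000432, edgeR). With knockdown ZNF43 stood at -0.21 ± 0.10 and was not called (adjusted p = 0.105, edgeR). ZNF681, ZNF254 and ZNF43 were picked for a small adjusted p in these data, so their p-values are a description. Of 475 tested genes named ZNF, 203 were called higher and 63 lower with overexpression (median 0.15), and 133 higher and 45 lower with knockdown (median 0.07). In no comparison was a difference between these lists tested.

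The corepressor genes through which KRAB proteins act were measured from a list of 32. With overexpression 6 were called higher and 14 lower (median -0.08), and with knockdown 9 higher and 5 lower (median 0.05). In the direct contrast 5 were higher and 15 lower. Over all genes 49.2%, 39.0% and 57.4% were called in these 3 comparisons, in near equal parts higher and lower. The corepressor genes named next were picked for a small adjusted p in these comparisons, so their p-values are a description. The direct differences of 2 heterochromatin protein genes were the largest of the list. CBX5 stood at 324 CPM in control, 408 CPM with overexpression and 213 CPM with knockdown, a direct difference of 0.94 ± 0.06 (adjusted p = 3.94e-10, edgeR). CBX3 stood at 332, 341 and 204 CPM in the same order, a direct difference of 0.74 ± 0.06 (adjusted p = 1.99e-09, edgeR). CHD3, a chromatin remodeller that binds TRIM28, was lower with overexpression than with knockdown by a log2 difference of -0.53 ± 0.05 (adjusted p = 3.58e-08, edgeR), and ATF7IP, a partner of SETDB1, higher by 0.48 ± 0.06 (adjusted p = 3.65e-07, edgeR). UHRF1, which guides maintenance DNA methylation, fell by 0.53 with overexpression (SE 0.05, adjusted p = 1.88e-07, edgeR) and by 0.20 with knockdown (SE 0.06, adjusted p = 0.00984, edgeR; not called without control replicate 2 or knockdown replicate 3).

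Of 12260 other genes, those whose log2 CPM averaged 2 or more, the 5 whose log2 CPM over the 8 libraries was most like that of ZNF117 were CXorf57 (Pearson r = 0.994), GNAQ, which encodes a G protein alpha subunit (0.989), FNIP2, a folliculin partner (0.989), ECI2, an enzyme of fatty acid oxidation (0.986), and SYT11, a synaptotagmin (0.986). The measure holds the difference between control and treated libraries, and carries no test. None of the 5 shared the size of the drop: their log2 fold changes ran from -0.36 to -0.07 with overexpression and from -0.43 to -0.08 with knockdown, and those of ECI2 were not called. ERV3-1 ranked 100 on this measure (r = 0.928). Of the members, ZNF736 came closest (0.157) and ZNF92 was farthest (-0.842).

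Likeness between the genes bears on how surely reads can be assigned. In the longest annotated transcript of each member, 0.456% (ZNF138) to 4.77% (ZNF273) of all 50-base windows also occur in a transcript of another gene. The partners were mostly other zinc finger genes, among them ZNF708, ZNF98 and ZNF492. No 100-base window was shared except between ZNF117 and ERV3-1, where 1.44% of the windows of ZNF117 were. For ZNF117 the 50-base share was 3.72%, most often with ERV3-1. The read length and how multi-mapped reads were handled were not stated in those sources, so counts on those stretches are uncertain.

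The study set out to follow MOV10 in microRNA-mediated regulation, and zinc finger genes are known for repeated matches to the miR-181 seed in their coding sequence. The mature sequence from RefSeq is shown with its seed, bases 2 to 8, in capitals.
hsa-miR-181a-5p: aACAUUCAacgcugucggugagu
Its match TGAATGT occurs 2 times in the coding sequences of ZNF117, ZNF92, ZNF273 and ZNF680, 1 time in ZNF736 and not in ZNF107, ZNF138 or ERV3-1. Of 19907 coding genes 12.6% hold at least 1 match and 3.14% at least 2, and of 514 genes named ZNF 60.9% hold at least 1. Of the genes with 2 matches, ZNF117 was lower in both treatments, ZNF92 and ZNF273 were higher in both and ZNF680 was higher with overexpression alone. ERV3-1, without a match, was lower in both. Whether the matches bear on these levels was not tested. The microRNA itself was not measured here.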

How the data were processed

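The authors deposited raw read counts for each gene symbol. The submitters' processing notes name HTSeq 0.5.3p9, TopHat2 2.0.8, Trimmomatic 0.22, CASAVA 1.8.2, SAMtools 0.1.18 and edgeR, and the build hg19. The sources used here give neither the strand setting of the counting nor its gene annotation. Titles gave each library's group and replicate number, and column names were matched to titles.

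All 8 libraries were fitted once in R 4.3.3 with edgeR 4.0.16 (filterByExpr, minimum count 10, total 15; TMM; quasi-likelihood F test, two-sided; Benjamini-Hochberg over 15254 genes, called under 0.05), after a test on simulated data. Fold changes are log2 with standard errors. Alternatives were other scalings and filters, DESeq2 1.42.0, limma-voom (limma 3.58.1), fewer groups, a replicate block, thinned counts, MOV10 left out and leaving out each library.

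The members and lists were chosen with earlier results of these data known. Named were the 7 members, MOV10, ERV3-1, other zinc finger genes of the region, up to 4 genes per list and contrast type with the smallest adjusted p, not all of them printed, and the 5 genes most like ZNF117. Promoters and microRNAs come from RefSeq (GRCh38.p14), matching all 7 members, and gene models from GENCODE 29. Promoters were aligned with Biopython 1.88.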

Additional observations from a re-analysis of the deposited data

How the results depend on the processing

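ZNF117 and ERV3-1 kept their direction and stayed called in both comparisons with control under all 18 alternatives, with log2 fold changes from -1.003 to -0.79 and -1.03 to -0.76 with overexpression and from -1.09 to -0.98 and -1.25 to -0.99 with knockdown. ZNF117 was chosen by its fall in these 2 comparisons, so its calls there are no further support for that fall. The calls of ERV3-1 may not be independent of those of ZNF117. The 6 higher members with overexpression were called under all 18 alternatives, but ZNF107 and ZNF736 came close to the threshold at their weakest. The lowest log2 fold changes of these genes were 0.153 and 0.251. With knockdown, leaving out 1 library gave 1 to 3 higher members, 1577 to 3749 higher genes and 1466 to 3484 lower genes, the lowest without knockdown replicate 2, where the lone library is assumed to vary like the others. In the direct contrast, leaving out 1 library gave 2 to 3 higher and 0 to 1 lower members. The value of ZNF107 there turned from -0.01 to 0.076 with library totals, 0.008 with a minimum count of 50 and 0.017 in thinned counts, and ran from -0.079 to 0.066 when 1 library was left out (above 0 without knockdown replicate 3, at 0.02, or overexpression replicate 2), none called. CBX3 with overexpression (0.04) ran from -0.002, without control replicate 3, to 0.08, without control replicate 1, when 1 library was left out. The cause of these shifts was not tested.

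Deviations of libraries with the same replicate number correlated between -0.085 and 0.09, so no strong pairing by number was seen. With 2 or 3 libraries per group, these correlations cannot exclude a pairing. The replicate block left 6 members higher and 1 lower with overexpression and 3 and 2 with knockdown, and changed no call of a gene followed here. It gave 3649 higher and 3468 lower genes with overexpression. ERV3-1 rests on 57 to 182 reads per library, which limits its precision.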
